A study of Mus musculus with 6 samples.

Results

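Dennd1b, a mouse gene on the plus strand of chromosome 1, gave rise to several circular RNAs (circRNAs) in liver. The members were all entries with the host gene name Dennd1b in the deposited table, 10 of the 7469 entries listed. The gene was chosen by the number of circRNA entries listed for it, a measured value, so that the number of its junctions and of its reads is given here as a description. Entries with the same end and strand and with starts 1 bp apart were summed, which left 7 back-splice junctions of the 7122 in the whole table. They held 92 back-spliced reads, reads across the join of a downstream exon end to an upstream exon start, or 0.254% of all 36218. The libraries were made from the livers of 3 mice on a high-fat diet (HFD) and 3 mice on a low-fat diet (LFD). All were male C57BL/6J mice of 12 weeks and were fasted before collection by the paper's methods. Between the groups the labels name a difference in diet only, with no genetic change or drug. The RNA was depleted of ribosomal RNA and, by the paper's methods, digested with RNase R to remove linear molecules. The sample labels name only the ribosomal depletion. The sequence was read from whole tissue, so that fewer cells of a type and less circular RNA per cell cannot be told apart.

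Dennd1b belongs to the DENN domain proteins, which activate small Rab GTPases by exchanging their bound GDP for GTP. Its main target is Rab35, a GTPase that directs cargo from endosomes back to the plasma membrane, and it binds clathrin and the clathrin adaptor AP-2 at coated vesicles. The gene is known best from helper T cells, where it takes part in clearing T cell receptors from the cell surface, and less is known of it in hepatocytes. A circular RNA forms when a splice donor is joined to an acceptor that lies upstream in the same transcript. The exons in between then close into a ring without free ends, and a gene with several usable donors and acceptors can yield several rings.

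In the GENCODE M21 annotation of GRCm38, Dennd1b lies on chromosome 1 from 138963435 to 139178960. The junctions fell on exons of the transcript ENSMUST00000168527, which has 22 exons. All of them joined coding exons, so that no circle contained an untranslated region. The 7 back-splice junctions are shown because they define the members, each as the last 20 bases of the donor exon in lower case followed by the first 20 bases of the acceptor exon in capitals, read 5′ to 3′ on the plus strand from the GENCODE transcript sequence.
Exons 4 to 9: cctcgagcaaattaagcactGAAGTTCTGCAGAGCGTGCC
Exons 5 to 9: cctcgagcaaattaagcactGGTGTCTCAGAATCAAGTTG
Exons 6 to 9: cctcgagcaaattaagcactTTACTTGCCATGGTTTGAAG
Exons 10 to 12: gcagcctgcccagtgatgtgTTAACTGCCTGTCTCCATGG
Exons 10 to 14: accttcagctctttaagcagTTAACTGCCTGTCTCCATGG
Exons 11 to 13: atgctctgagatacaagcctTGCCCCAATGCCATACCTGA
Exons 11 to 14: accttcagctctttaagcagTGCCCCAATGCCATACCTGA
The first 3 share the donor end of exon 9 and differ in the acceptor. Of the other 4, the circles of exons 10 to 14 and 11 to 14 share the donor end of exon 14, and each acceptor was joined to a pair of donors.

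The circles divided into 2 groups that did not overlap on the gene, exons 4 to 9 and exons 10 to 14. No junction spanned intron 9, which separates them. This intron is 18201 bp long, the fourth longest of the 21 introns of the transcript, whose median is 4609 bp, and it flanks 5 of the 7 circles. The largest circle of each group, exons 4 to 9 (486 bases) and exons 10 to 14 (477 bases), contains the exons of all other circles of that group. The exons by which the main circles of a group differ are given next, in circle order from the acceptor. In the first, of 240 bases, capitals mark exons 4 and 5, which the circle of exons 6 to 9 lacks, and exon 6 follows in lower case.
Exons 4 to 6: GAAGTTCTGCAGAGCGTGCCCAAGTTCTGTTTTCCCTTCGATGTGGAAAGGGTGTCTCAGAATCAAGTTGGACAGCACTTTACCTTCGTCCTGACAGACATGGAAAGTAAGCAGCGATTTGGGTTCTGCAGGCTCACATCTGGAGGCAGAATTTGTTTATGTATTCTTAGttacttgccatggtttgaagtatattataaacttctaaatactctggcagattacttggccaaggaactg
In the second, of 147 bases, capitals mark exon 10, which the circle of exons 11 to 14 lacks, and exon 11 follows in lower case.
Exons 10 and 11: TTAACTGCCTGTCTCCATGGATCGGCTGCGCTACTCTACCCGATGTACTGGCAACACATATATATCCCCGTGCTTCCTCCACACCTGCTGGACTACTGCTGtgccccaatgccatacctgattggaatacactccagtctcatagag
Exons 1 to 3 and 15 to 22 lay in no circle.

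**Figure D1:**
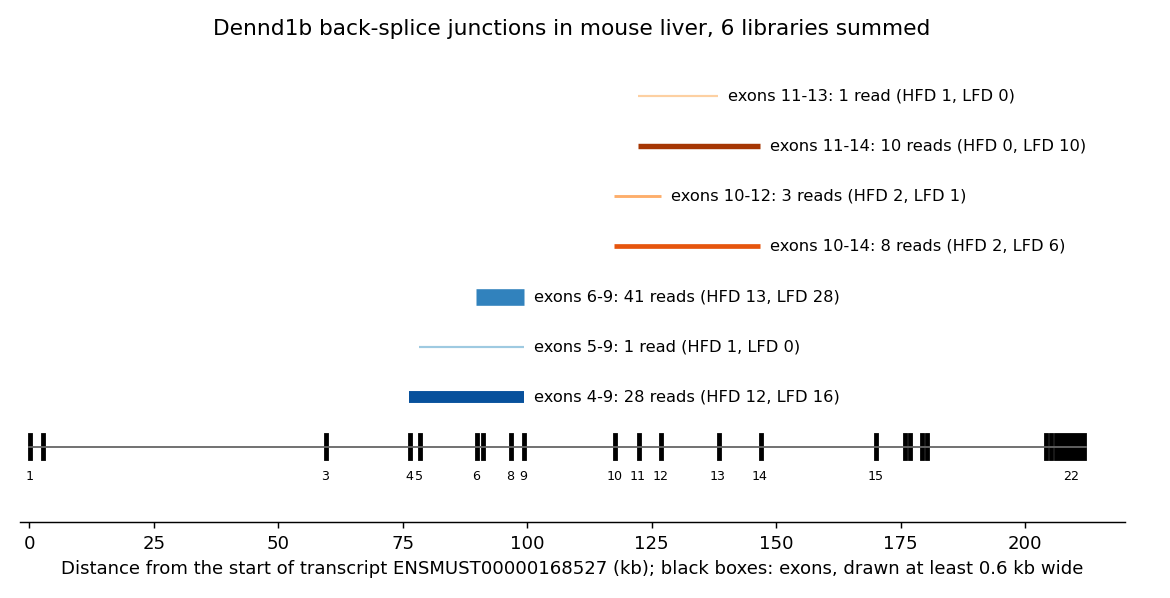
Exons of transcript ENSMUST00000168527 (black boxes) and the 7 Dennd1b circles (coloured lines, wider with more reads), with the distance from the transcript start in kb on the horizontal axis and the reads of the 6 libraries beside each line. The 3 circles that end at exon 9 lie to the left of intron 9, the 4 circles that begin at exon 10 or 11 lie to its right, and no line crosses it.

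The group of exons 4 to 9 held 70 reads (76.1% of the gene) on 3 junctions, and the group of exons 10 to 14 held 22 reads (23.9%) on 4 junctions. By donor, exon 9 closed circles in 70 reads, exon 14 in 18, exon 12 in 3 and exon 13 in 1. By acceptor, exon 6 was used in 41 reads, exon 4 in 28, exons 10 and 11 in 11 each and exon 5 in 1. The donor end of exon 9 was therefore the site common to most reads, while the acceptors were divided mainly between exons 4 and 6.

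Exons 4 to 9 encode codons 43 to 204 and exons 10 to 14 encode codons 205 to 363 of the 766 codons of the transcript, in the amino-terminal part of the protein that carries the DENN domain. The circles of exons 4 to 9, 10 to 12 (249 bases) and 10 to 14 have lengths that are multiples of 3. When the reading frame of the gene was followed around these 3, no stop codon was met within 3 turns. This follows from the exon ends, since these 3 circles begin and end between codons and so repeat only codons of the gene. The lengths of the other 4 circles are 436, 316, 274 and 376 bases for exons 5 to 9, 6 to 9, 11 to 13 and 11 to 14, and in these the frame shifted at the junction and met a stop after 164, 110, 110 and 144 codons. These are properties of the sequence, and translation was not measured. The introns before the 5 acceptor exons measure 16851 bp (exon 4), 1874 bp (exon 5), 11302 bp (exon 6), 18201 bp (exon 10) and 4609 bp (exon 11). Those after the donors measure 18201 bp (exon 9), 11412 bp (exon 12), 8290 bp (exon 13) and 23185 bp (exon 14). The shortest of these lies before exon 5, an acceptor with 1 read. The acceptors of exon 11, behind 4609 bp, and exon 10, behind 18201 bp, had 11 reads each. A relation of intron length to reads was not tested.

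The circle of exons 6 to 9, at chr1:139053346-139062971 of GRCm38, led with 41 reads (44.6% of the gene) and was the only one with reads in all 6 libraries. It had 7, 2 and 4 reads in HFD 1, 2 and 3 and 12, 3 and 13 reads in LFD 1, 2 and 3. These correspond to 1.61, 0.509 and 1.07 SRPBM (back-spliced reads as scaled by the authors to the mapped reads of each library) on the HFD and to 3.20, 0.830 and 3.43 SRPBM on the LFD. LFD 1 and LFD 3 were above every HFD library, and LFD 2 lay within the HFD range.

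The circle of exons 4 to 9, at chr1:139040000-139062971, followed with 28 reads in 4 libraries. Its reads were 2, 0 and 10 on the HFD and 7, 0 and 9 on the LFD, or 0.459, 0 and 2.69 SRPBM against 1.86, 0 and 2.37 SRPBM. HFD 2 and LFD 2 had none, and the range on one diet covered that on the other almost fully. In 5 of the 6 libraries the circle of exons 6 to 9 had more reads than that of exons 4 to 9. HFD 3 was the exception, with 4 against 10 reads. The order of the 2 leading circles thus rests on few reads per library, and a difference in it between mice was not tested.

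The circle of exons 11 to 14, at chr1:139085883-139110485, had 10 reads, with 4, 4 and 2 in LFD 1, 2 and 3 and none in any HFD library. In SRPBM the LFD values were 1.07, 1.11 and 0.527. It was the only Dennd1b circle whose values did not overlap between the diets, which was so for 5.07% of the 2089 circRNAs tested, and for 2.25% with the HFD lower as here. LFD 3 with 2 reads is below the 3 reads that a count of 0 allows. Within this limit it is not apart from the HFD libraries. The circle of exons 10 to 14, at chr1:139081173-139110485, had 8 reads, with 0, 0 and 2 on the HFD and 4, 2 and 0 on the LFD (0.537 SRPBM in HFD 3, and 1.07 and 0.554 SRPBM in LFD 1 and 2). Both close at the donor of exon 14, and LFD 1 and LFD 2 were the libraries in which both were found.

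The 3 remaining circles had few reads. That of exons 10 to 12 had 2 reads in HFD 1 and 1 in LFD 2, that of exons 5 to 9 had 1 read in HFD 3, and that of exons 11 to 13 had 1 read in HFD 1. None of them reached 3 reads in a library. A count of 0 allows up to 3 reads, between 0.688 and 0.830 SRPBM by library, so that the absence of such a circle from a library was not detectable as a difference. This limit covers counting error only.

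Summed over its circles, Dennd1b had 12, 2 and 17 reads in HFD 1, 2 and 3 and 27, 10 and 24 reads in LFD 1, 2 and 3. The corresponding SRPBM values were 2.75, 0.509 and 4.57 on the HFD and 7.19, 2.77 and 6.33 on the LFD. HFD 2 was the lowest of all, with 0.0303% of its back-spliced reads on Dennd1b against 0.181% to 0.501% in the other 5 libraries. Yet HFD 2 held the most back-spliced reads of any library, 6590. LFD 2 was below HFD 3 and close to HFD 1, so that the diets overlapped.

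**Figure D2:**
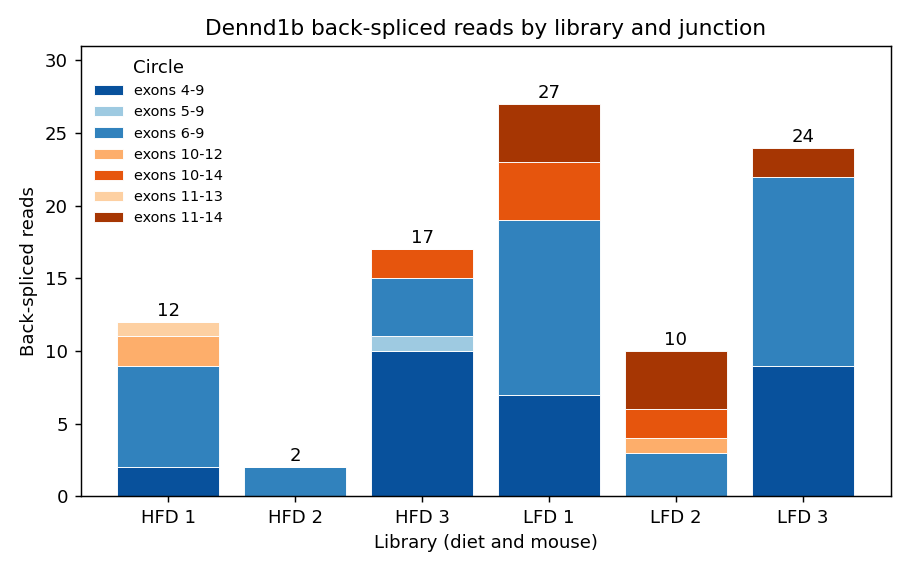
Back-spliced reads of Dennd1b (vertical axis) in each of the 6 libraries (horizontal axis), stacked by circle, with exons 4 to 9 in blue and exons 10 to 14 in orange and the total above each bar. The totals run from 2 in HFD 2 to 27 in LFD 1, and the darkest orange, exons 11 to 14, appears in the 3 LFD libraries only.

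The reads did not divide in the same way in each library. The circles of exons 10 to 14 took 3 of 12, 0 of 2 and 2 of 17 Dennd1b reads in HFD 1, 2 and 3, and 8 of 27, 7 of 10 and 2 of 24 in LFD 1, 2 and 3. In percent these shares were 25.0, 0 and 11.8 on the HFD and 29.6, 70.0 and 8.33 on the LFD. LFD 2 was the only library with more reads in this group than in that of exons 4 to 9, and the exact binomial 95% interval of its share, 34.8% to 93.3%, overlaps those of the 3 HFD libraries and of LFD 1 (13.8% to 50.2%) but not that of LFD 3 (1.03% to 27.0%). The share was looked at after the values were seen and was not tested between the diets.

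The question of the study was whether the diet changes circRNAs of the liver, and for Dennd1b fewer reads were found on the HFD (31) than on the LFD (61). Total Dennd1b was 2.61 ± 2.03 SRPBM (SD, n = 3) in the HFD group and 5.43 ± 2.34 SRPBM (SD, n = 3) in the LFD group, 2.08-fold higher on the LFD. The difference of -2.82 SRPBM (HFD minus LFD) was not larger than the spread between mice allows to call (two-sided exact permutation test over the 20 arrangements, p = 0.2, or 0.6 adjusted by Benjamini-Hochberg over the 3 tests of this kind, where 3 mice against 3 allow no p below 0.1). In the edgeR quasi-likelihood test on reads summed by host gene, fitted on all 1834 host genes with reads in at least 2 libraries, the log2 fold change was -1.10 with a standard error of 0.566, taken from the test statistic (unadjusted p of 0.0512, adjusted p of 0.798). Dennd1b was thus not among the 2.29% of host genes with an unadjusted p under 0.05 and at least 1 log2 unit of change in size, the thresholds named in the paper's methods, or among the 1.04% that passed as lower on the HFD. Its values overlapped between the diets, whereas 6.22% of the host genes tested had no overlap in either direction and 2.94% had none with the HFD lower.

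This value moved with single libraries. In edgeR the log2 fold change of the gene was -0.59 without HFD 2 (unadjusted p of 0.335). It was -0.81 without LFD 1 (unadjusted p of 0.368) and -0.99 without LFD 3 (unadjusted p of 0.0899). The gene passed the unadjusted thresholds without HFD 1 (-1.23, p of 0.0382), without HFD 3 (-1.65, p of 0.0150) or without LFD 2 (-1.40, p of 0.0193). The libraries also fall into 2 classes of base quality in the paper's sequencing statistics, a higher class with HFD 1 and LFD 3 and a lower class with the other 4. Within the lower class, Dennd1b had 0.509 and 4.57 SRPBM in the HFD libraries and 7.19 and 2.77 SRPBM in the LFD libraries. Within the higher class it had 2.75 SRPBM in HFD 1 and 6.33 SRPBM in LFD 3, and the mean or value was lower on the HFD in both.

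Among single circles, 5 of the 7 had reads in at least 2 libraries and entered the test over 2089 summed circRNAs, and 1 of them, exons 11 to 14, passed the unadjusted thresholds, lower in the HFD group. Of all circRNAs tested 2.25% passed in either direction and 1.15% passed as lower on the HFD, and the 1 call among the 5 rests on 10 reads. Its edgeR unadjusted p was 0.0257 and its adjusted p was 0.691. None of the 2089 circRNAs had an adjusted p under 0.05 in the edgeR quasi-likelihood test, in the edgeR exact test, in DESeq2 or in limma, where 47, 10, 16 and 79 had an unadjusted p under 0.05. The call was lost in edgeR without HFD 3 (unadjusted p of 0.0633), without LFD 1 (0.0630) and without LFD 2 (0.0527). It was also lost in the edgeR exact test (0.0699). The mean on the LFD was 0.900 ± 0.323 SRPBM (SD, n = 3). Against 3 reads in each HFD library, a mean of 0.752 SRPBM, the LFD mean is 1.20-fold higher. This ratio is not a lower bound, since the LFD mean has its own error and LFD 3 (0.527 SRPBM) lies below 0.752. An uncharacterised antisense gene, Gm37655, on the minus strand from 139082862 to 139086984, covers exon 11. Exons 13 and 14, to which exon 11 was joined, begin at 139101968 and 139110384 and lie outside it.

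The leading circle of exons 6 to 9 was 1.06 ± 0.549 SRPBM (SD, n = 3) on the HFD and 2.48 ± 1.44 SRPBM (SD, n = 3) on the LFD. Its log2 fold change in edgeR was -1.24 with a standard error of 0.848 (unadjusted p of 0.144, adjusted p of 0.705), so that no difference was called. For exons 4 to 9 the means were 1.05 ± 1.44 and 1.41 ± 1.25 SRPBM (SD, n = 3 each), with a log2 fold change of -0.58 and an edgeR unadjusted p of 0.563. This direction did not hold without HFD 2 (0.01) or without LFD 3 (0.05). For exons 10 to 14 and 10 to 12 the edgeR log2 fold changes were -1.61 and 0.71, with unadjusted p-values of 0.418 and 0.720, on 8 and 3 reads. The circles of exons 5 to 9 and 11 to 13 had reads in 1 library each and were not tested.

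**Figure D3:**
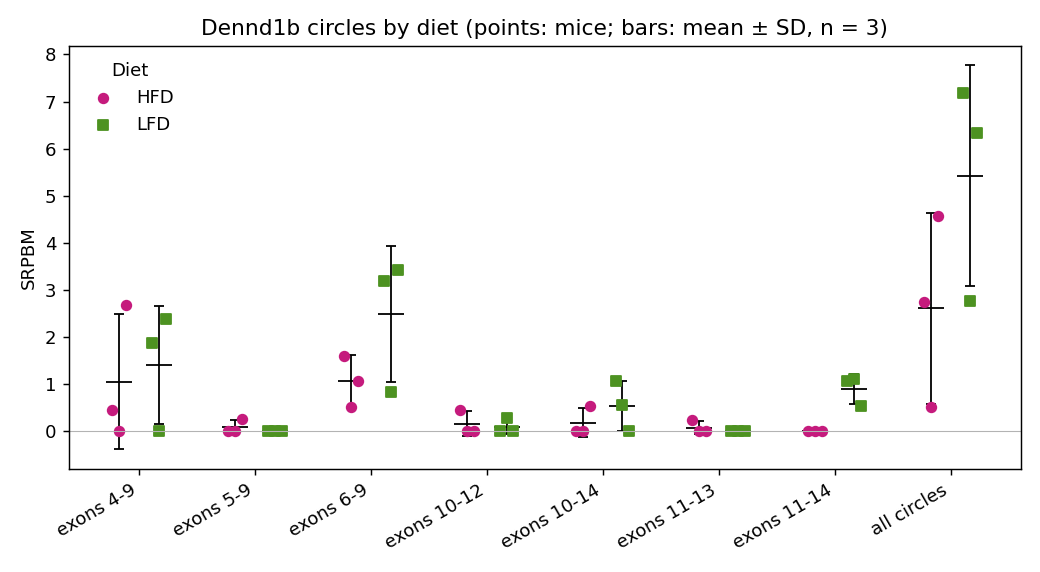
SRPBM (vertical axis) of each Dennd1b circle and of all circles together (horizontal axis), with 1 point per mouse, HFD as circles and LFD as squares, and the mean ± SD of 3 mice as bars, which reach below 0 where the SD exceeds the mean. For exons 11 to 14 all HFD points are at 0 and the LFD points lie between 0.527 and 1.11, whereas the points of the 2 diets overlap for every other circle and for the total. The lowest of these LFD points is below the 3 reads that a count of 0 allows.

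The number of Dennd1b junctions with reads was 4, 1 and 4 in HFD 1, 2 and 3 and 4, 4 and 3 in LFD 1, 2 and 3, with means of 3.0 ± 1.73 and 3.67 ± 0.577 (SD, n = 3 each; two-sided exact permutation test, p = 1). The low number belongs to HFD 2, the library with 2 reads. The leading circle held 58.3% and 23.5% of the Dennd1b reads in HFD 1 and HFD 3, all 2 reads in HFD 2, and 44.4%, 30.0% and 54.2% in LFD 1, 2 and 3. The means were 60.6% ± 38.3 and 42.9% ± 12.2 (SD, n = 3 each; exact permutation test, p = 0.6, adjusted 0.9). In HFD 2 the share rests on 2 reads, and the exact binomial 95% interval of the share begins at 15.8%. Without HFD 2 the difference changed from 17.8 to -1.94 percentage points.

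Of the 7 junctions, 3 were listed as a pair of entries whose starts differ by 1 bp. In each pair the lower start is the annotated first base of the exon and the other lies 1 bp inside it. For exons 4 to 9, the entry at the exon start (mmu_circ_0000081) had 7 reads, all in LFD 1, and the entry 1 bp inside (circRNA1765) had 21 reads, with 2 in HFD 1, 10 in HFD 3 and 9 in LFD 3. For exons 6 to 9, the entry 1 bp inside (circRNA3114) had 2 reads, both in HFD 2, and the entry at the exon start (mmu_circ_0000083) had the 39 reads of the other 5 libraries. For exons 11 to 14, LFD 1 and LFD 2 had 4 reads each on the entry 1 bp inside (circRNA4897), and LFD 3 had 2 reads on the entry at the exon start (mmu_circ_0008223). In all 13 combinations of a pair and a library with reads, the reads were on 1 entry, and none had reads on both.

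The 3 entries 1 bp inside an exon held 31 reads (33.7%), all under the transcript ENSMUST00000094505. The 7 entries at an exon start were all listed under ENSMUST00000168527. The 11 exons from 4 to 14 have the same ends in both transcripts. The listed number of exons matched the annotation in all 10 entries. Database names were given to 5 entries with 57 reads. When the entries were left unsummed, the leading entry of exons 6 to 9 had no read in HFD 2, and the difference in its share of Dennd1b reads was -15.6 percentage points in place of 17.8. The log2 fold change of exons 4 to 9 was then 0.26 for its larger entry in place of -0.58.

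Among the 3468 host genes, the median number of summed junctions was 1 and the median number of reads 3. Dennd1b ranked 63rd by junctions, tied with the other genes of 7 junctions, and 55th by reads, and 101 host genes had at least 7 junctions. Separate groups of circles were common among genes with several circles. Of the 237 host genes with at least 5 exonic junctions, 153 (64.6%) had circles in 2 or more groups without overlap on the gene, as did 22 of the 33 genes with 7 exonic junctions. Among these 33 genes the reads ranged from 11 to 454 with a median of 40, and Dennd1b was the sixth by reads. The leading junction held 44.6% of the Dennd1b reads, close to the median of 45.5% over the 33. Neither the division into groups nor the share of the leading circle set Dennd1b apart from the other genes with as many circles.

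**Figure D4:**
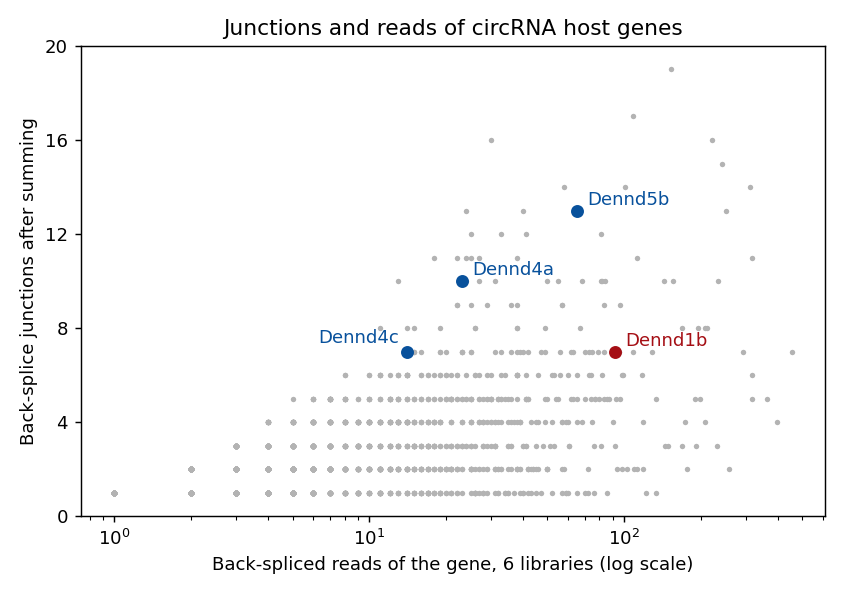
Summed back-splice junctions (vertical axis) against back-spliced reads in the 6 libraries (horizontal axis, log scale) for the 3468 host genes, 1 point per gene. Dennd1b (red) has 7 junctions and 92 reads, whereas Dennd5b, Dennd4a and Dennd4c (blue) have 13, 10 and 7 junctions on 65, 23 and 14 reads.

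Other DENN domain genes and partners of Rab35 were examined from a list of 43 symbols, older names included, which RefSeq synonyms resolved to 41 genes. CircRNAs were found for 15 of them, 9 of the 20 DENN genes and 6 of the 21 partners. None of the 11 genes tested passed the thresholds in either direction, where 2.29% of all host genes did. Their median log2 fold change was 0.67 beside -0.09 over all host genes tested. This median is the value of Cltc, a gene with 3 reads (edgeR unadjusted p of 0.721), and a shift of the list was not tested. Dennd1a, the closest relative of Dennd1b and likewise an activator of Rab35, had 6 reads on 3 junctions, so that the relative contributed far fewer reads.

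Dennd5b, whose family binds Rab GTPases of the Golgi and endosomes, had 65 reads on 13 junctions. On the HFD 7, 23 and 11 reads were counted and on the LFD 15, 4 and 5, with a log2 fold change of 0.60 (edgeR unadjusted p of 0.370). Its highest library was HFD 2, the one with the fewest Dennd1b reads. Dennd4a, an activator of Rab10, had 2, 3 and 1 reads on the HFD and 8, 8 and 1 on the LFD, with a log2 fold change of -1.59 (edgeR unadjusted p of 0.153), and the diets overlapped through LFD 3. Dennd4c, which also activates Rab10, had 0, 5 and 5 reads on the HFD and 3, 0 and 1 on the LFD (log2 fold change of 1.09, edgeR unadjusted p of 0.451).

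Dennd2b, listed in the table as Denn2b, had 16 reads on 1 junction, with 0, 5 and 9 on the HFD and 2, 0 and 0 on the LFD (log2 fold change of 2.45, edgeR unadjusted p of 0.0971, adjusted p of 0.798), and the diets overlapped through HFD 1. The remaining DENN genes, Dennd5a, Dennd6a, Sbf1 and Sbf2, had between 3 and 8 reads each, on 2 or 3 junctions. Sbf1 and Sbf2 are catalytically inactive relatives of the myotubularin phosphatases that carry a DENN domain. The partners with circRNAs were Rab8a, Acap2, a GTPase-activating protein recruited by Rab35, the AP-2 subunits Ap2b1 and Ap2m1, and the clathrin chains Clta and Cltc, with 1 to 4 reads each. Rab35 itself had no circRNA in the list.

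The host genes whose reads were spread over the 6 libraries most like those of Dennd1b were sought among 78 other genes with at least 50 reads and 5 junctions. Likeness was the mean absolute difference, over the 6 libraries, in the share of the gene's SRPBM that a library holds, with a median of 9.78 percentage points over the 78 genes. Dennd1b had 11.4%, 2.11% and 18.9% of its SRPBM in HFD 1, 2 and 3 and 29.8%, 11.5% and 26.2% in LFD 1, 2 and 3. Among the 3 closest were Ddi2, an aspartic protease, at 5.48 percentage points and Mug-ps1 at 5.87. Ddi2 had 8, 8 and 12 reads on the HFD and 14, 12 and 14 on the LFD, on 10 junctions, with the lowest numbers in HFD 1 and HFD 2. Mug-ps1 is a pseudogene of the murinoglobulin family, whose members are so alike that its reads may belong to another copy.

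The libraries held between 5384 and 6590 back-spliced reads and reads of 1749 to 2129 summed circRNAs. As a check of the tissue, circRNAs were found for 15 of 18 hepatocyte genes, among them Alb, Apob and Cps1, with 15 to 30 reads on the HFD and 11 to 38 on the LFD in sum. Of genes typical of other liver cells, 1 of 5 for Kupffer cells, 3 of 5 for endothelial cells and 1 of 4 for stellate cells had circRNAs. Summed within each list, these had at most 4 reads per library. The 4 cholangiocyte genes and the 5 lymphocyte genes, Cd3e and Ptprc included, had none. A gene without a circRNA may still be expressed, so that this does not show that a cell type was absent. The paper describes infiltration of inflammatory cells in livers on the HFD. Reads of the Kupffer cell list were 0 to 2 per library on the HFD and 2 on the LFD, and the part of other cells in the Dennd1b values was not tested.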

How the data were processed

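Livers of 3 HFD and 3 LFD mice were sequenced after ribosomal depletion. The authors trimmed reads with cutadapt (1.9) and aligned them with TopHat2 (2.0.4), per the submitters' processing notes, and deposited for each circRNA the counts of back-spliced reads per library and a signal, SRPBM (back-spliced reads relative to all mapped reads). In each library the deposited SRPBM was the count times 1 factor, between 0.229 and 0.277 SRPBM per read. The notes name mm9, but 6360 of 6406 exonic entries end on exon ends of GENCODE M21 (GRCm38), as do all 10 Dennd1b entries, so that positions are given on GRCm38, and exon sequences are from GENCODE M21.

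Entries with the same strand and end and starts 1 bp apart were summed, which joined 347 pairs in the table. Counts were tested with edgeR (4.0.16) in R (4.3.3), with TMM scaling, the quasi-likelihood test and Benjamini-Hochberg adjustment, on circRNAs or host genes with reads in at least 2 libraries and with all 6 libraries in the fit. A call needed an unadjusted p below 0.05 and a change of 1 log2 unit or more in size. Single values were compared by two-sided exact permutation tests, enumerated in Python (3.11.15) with NumPy (2.4.6). DESeq2 (1.42.0) and limma (3.58.1, on log2 of SRPBM plus 0.5) were alternatives, beside the edgeR exact test, other filters and scaling, replicate or quality class terms and leaving out each library. The edgeR fit was tested on simulated data. Shares have exact Clopper-Pearson 95% intervals from SciPy (1.17.1), which cover counting error only, since reads carry no molecular identifiers. Each library is taken as 1 mouse. Entries without a host gene (90 entries, 2.20% of reads) stayed in the fit of circRNAs and out of that of host genes. Figures were drawn with matplotlib (3.10.9).

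All Dennd1b circles were described, with full statistics for those of at least 5 reads, and the 3 host genes of most similar spread over the libraries were to be named, of which 1 is not reported here. The gene, its members and the lists of other genes were chosen with earlier results of these data known.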

Additional observations from a re-analysis of the deposited data

How the results depend on the processing

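The log2 fold change of the leading Dennd1b circle, exons 6 to 9, kept its direction and stayed outside the thresholds in all 10 alternatives and in the 6 fits without 1 library (-1.81 to -0.92). For all Dennd1b reads together the log2 fold change of -1.10 was between -1.65 and -0.59 without 1 library. The number of Dennd1b circles past the thresholds, 1, was 0 with the edgeR exact test, and 0 to 1 without 1 library. The difference in total SRPBM was -4.15 to -1.77 without 1 library. The difference in the number of junctions was -1.17 to 0.333 without 1 library, and it was above 0 only without HFD 2. The difference in the share of the leading circle was -1.94 to 36.3 percentage points without 1 library, and -15.6 with entries as listed. For exons 4 to 9 the log2 fold change of -0.58 ranged from -2.42 to 0.051 without 1 library, with 0.01 without HFD 2 and 0.051 without LFD 3, and became 0.26 with entries as listed and 0.26 in the lower quality class alone, an alternative added after the data were seen. For exons 10 to 12 it became -0.011 with the quality class in the model. The cause of these changes was not tested.

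Over all circRNAs, the 47 past the thresholds became 16 with DESeq2, 10 with the edgeR exact test, 73 with limma, 17 with the quality class in the model and 27 in the lower quality class alone. Without 1 library there were 19 to 42, with 23 without HFD 2, 19 without HFD 3, 24 without LFD 2 and 27 without LFD 3. Without the filter on low counts, 1 circRNA had an edgeR adjusted p under 0.05.

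HFD and LFD libraries share the replicate numbers 1 to 3, but the labels do not say that a number marks a shared cage or day. The deviations of same-numbered libraries from their group means correlated at -0.07, 0.15 and -0.13 over 672 circRNAs, so that the numbers were not taken as pairs. With the replicate block, 9 circRNAs and 0 Dennd1b circles passed the thresholds. The log2 fold change of all Dennd1b reads was -1.30 with the block (edgeR unadjusted p of 0.0416), past the thresholds. All Dennd1b reads also passed in the fits without HFD 1, without HFD 3 or without LFD 2. Apart from the fits without 1 library, the block was the only alternative in which they passed. In the other 8 the log2 fold change stayed below 0, and the unadjusted p was larger than in the quasi-likelihood test without a block. These 8 included DESeq2, limma, the edgeR exact test, the quality class in the model and the lower quality class alone. With 92 reads over 6 libraries, 3 of the 7 circles stayed below 3 reads, the limit that a count of 0 allows, in every library.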
